A study of Mus musculus with 2 samples.

Results

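The proteasome is the barrel-shaped protease that degrades ubiquitin-tagged proteins and supplies peptides for display on MHC class I molecules. Its 20S core has outer rings of alpha subunits and inner rings of beta subunits, and only the subunits beta1, beta2 and beta5 cut peptide bonds. Interferons induce 3 replacement catalytic subunits, the immunosubunits beta1i (Psmb9), beta2i (Psmb10) and beta5i (Psmb8), which take the places of Psmb6, Psmb7 and Psmb5 in newly assembled cores. The core is capped either by the 19S particle, which binds ubiquitin chains and unfolds substrates, or by activators such as PA28, which open the gate of the core without using ATP.

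The 39 transcripts described here are those of the alpha and beta subunits, the 19S subunits, the 19S assembly chaperone Psmd5 and the activators Psme1 to Psme4. They were picked out of the 22060 genes of the deposited table by symbol, a rule that uses no measured value. The list itself was chosen with earlier results of these data known. The series holds 1 RNA-seq library of wild-type (WT) macrophages and 1 library of macrophages with STAT2 T403A, a form of this interferon signalling protein with a threonine replaced by alanine. Both are cultures of bone marrow from 8-week-old C57BL/6 mice, kept in M-CSF for 7 days so that progenitors became macrophages, and neither was treated (0 h). The sources used here do not give the number of animals behind each culture, any pooling of marrow, or whether the T403A mice were homozygous.

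All 39 members had a count in both libraries, and all passed the filter of a summed count of at least 20. The lowest summed count was 466, for Psmb5. Count totals were 16033032 in WT and 18658381 in T403A, and values are given as CPM, the depth-normalised count after TMM scaling, which compensates for differences in RNA composition. With 1 library per group there is no replicate check and no p-value, so a difference described here is one between a pair of libraries and may not hold for the genotypes. Ratios carry exact 95% intervals that cover counting error only. A gene is called lower or higher when the libraries are at least 1.5-fold apart and that interval excludes 1. All 9 macrophage markers were measured, at a summed 50421 CPM in WT and 39223 CPM in T403A. Of these, Adgre1, Itgam, Fcgr1 and Cd14 were called lower and Mrc1 higher. Transcripts of the mitochondrial genome took 1.93% and 2.46% of counts. Of the 10 lymphocyte markers, 5 were at 0 in both libraries and the summed level was 15.9 and 6.77 CPM, of which Cd4 made 15.2 and 5.37 CPM. The 8 dendritic cell markers summed to 96.1 and 116 CPM, of which Tcf4 made 92.7 and 113. Neutrophil markers summed to 287 and 173 CPM, mostly Csf3r, with Ly6g and Elane at 0 in both, and stromal markers to 16.6 and 19.4 CPM. What part other cells had in the results was not tested. As in any bulk sample, fewer cells of a type and less RNA per cell cannot be told apart.

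Of the 39 members, 8 were lower and 0 higher in the T403A library. Over all 11199 measured genes, 10.8% were called lower and 13.5% higher. Among the 7588 genes counted at least as often as Psmb5 (466), a comparison set chosen after the data were seen, 10.7% were lower and 7.8% higher. The called members were the 3 immunosubunits, the PA28 subunits Psme1 and Psme2, the alpha subunits Psma5 and Psma6 and the constitutive catalytic subunit Psmb5. At a threshold of 2-fold, 4 members were lower (Psmb8, Psmb9, Psme1 and Psme2) and 0 higher, against 6.08% lower of all measured genes. The median log2 ratio of the 39 members was -0.36 and that of all measured genes 0.01.

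**Figure D1:**
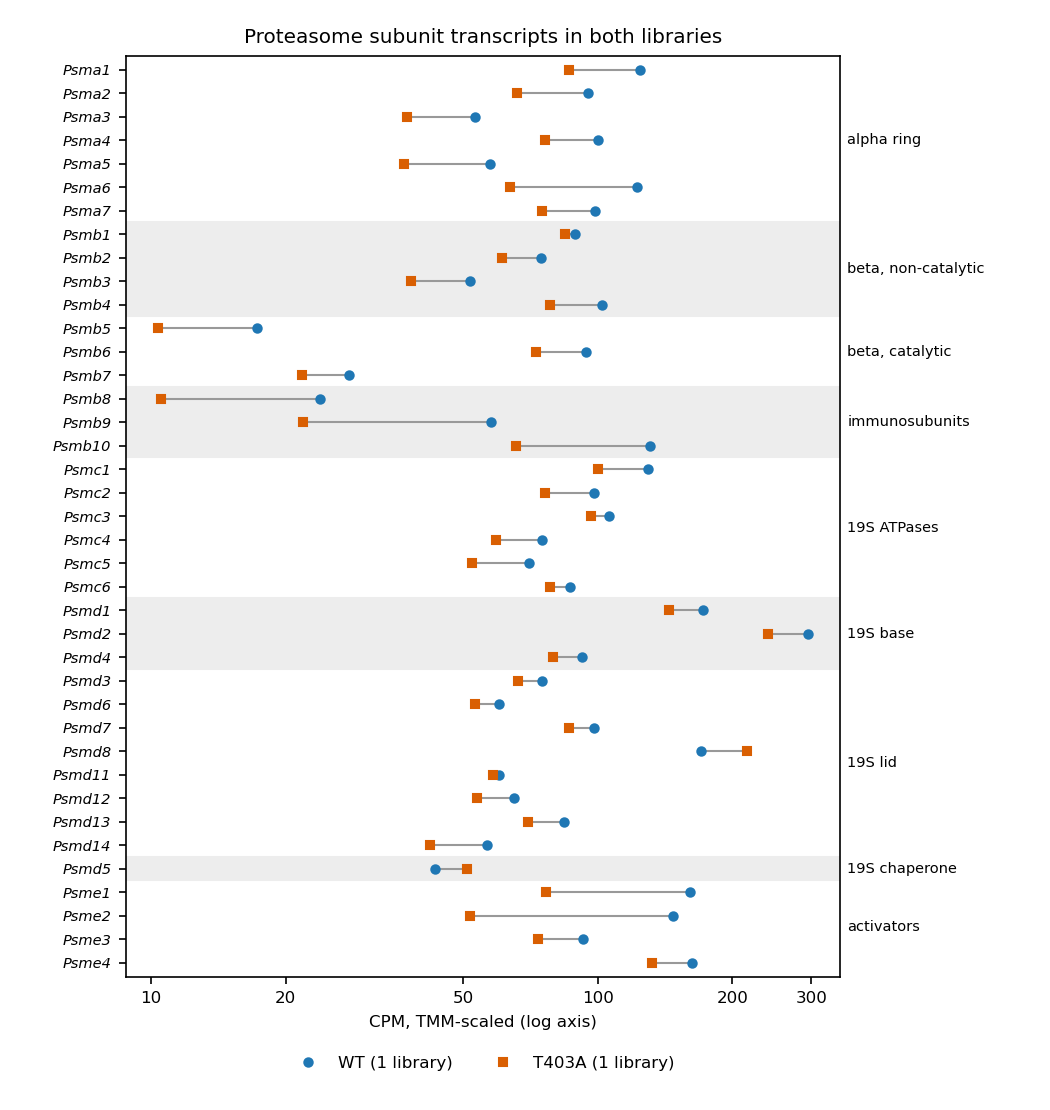
Level of each of the 39 members in CPM on a log axis, ordered by role, with circles for the WT library and squares for the T403A library (1 library each, no error bars). Only Psmd8 and Psmd5 were at a higher CPM in T403A, and Psme2, whose read split with Psme2b is uncertain, was at 148 and 51.7 CPM.

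Short stretches around matches to interferon-type motifs are shown first, because the immunosubunit and PA28 genes are the members known as interferon targets. Promoter windows from RefSeq (GRCm38.p6; 250 bases before to 50 after a start site) matched 33 of the 39 members. Each was searched on both strands for 2 copies of TTTC with any 2 bases between them, a strict form of the interferon-stimulated response element, and for TTCNNNGAA, the gamma-activated site bound by STAT dimers. In the lines below each sequence runs 5′ to 3′ on the gene's strand, with the matching bases in capitals. The Psmb8 site lies at chr17:34198088-34198117 (plus strand), Psmd2 at chr16:20651646-20651675 (plus), Psmb3 at chr11:97703261-97703290 (plus), Psmd4 at chr3:95042675-95042704 (minus) and Psme1 at chr14:55578493-55578522 (plus).
Psme1, response element: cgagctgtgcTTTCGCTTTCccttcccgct
Psmb3, response element: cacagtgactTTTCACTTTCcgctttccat
Psmd4, response element: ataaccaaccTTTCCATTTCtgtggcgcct
Psmb8, gamma-activated site: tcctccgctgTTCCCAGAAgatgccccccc
Psmd2, gamma-activated site: gcgcgtggccTTCTGGGAAaaggggcggtg

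Matches were found both in called and in uncalled members. The immunosubunit genes, Psme1 and Psme2, 5 in all, each had a window. Of these 5, 1 held the response element (Psme1) and 1 the gamma-activated site (Psmb8). Psmb9, Psmb10 and Psme2 held neither. Of the 26 constitutive subunits with a window (members other than the immunosubunits and Psme1 to Psme4), 2 held the response element and 1 the gamma-activated site. The response element was present in 3 members, of which Psme1 was called lower and Psmb3 and Psmd4 were not, and in 3.44% of all 32851 promoter windows. The first matching base was 10 bases after the start in Psme1, and 163 and 80 bases before it in Psmb3 and Psmd4. The gamma-activated site was present in Psmb8, called lower, starting 97 bases before the start, and in Psmd2, not called, starting 5 bases after it. Of all windows 8.3% held it. A looser motif, TGANNNNGC, a form of the antioxidant-type element used by NRF1, the factor that raises proteasome genes when proteasome activity falls, was in 19 of the 33 members and in 41.3% of all windows. The sequence CCAAT was in 12 of 33 members and in 37.4% of windows. A match is a run of letters and not evidence of binding. In Psma6, Psmc2 and Psme2 the matches came from windows at 2 start sites each. The number of windows searched per member is not given here.

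The 3 immunosubunit transcripts were each lower in the T403A library, and together their counts were 2.16-fold lower (95% counting interval 2.04 to 2.29). Of every count in WT, 0.0198% fell on these genes (Wilson 95% bounds 0.0192 and 0.0205), against 0.0105% in T403A (0.0100 and 0.0110). Psmb9 (ENSMUSG00000096727, chromosome 17, 34181987 to 34187764, minus strand, GRCm38) encodes beta1i. It was at 57.7 CPM in WT (866 counts) and 21.9 CPM in T403A (437 counts), 2.63-fold lower (2.35 to 2.96). Psmb8 (ENSMUSG00000024338, chromosome 17, 34197721 to 34201454, plus strand) encodes beta5i and was the rarest immunosubunit transcript. It was at 23.9 CPM in WT (358 counts) and 10.5 CPM in T403A (210 counts), 2.27-fold lower (1.91 to 2.70). Psmb10 (ENSMUSG00000031897, chromosome 8, 105935735 to 105938444, minus strand) encodes beta2i. Its level was 130 CPM in WT (1957 counts) and 65.6 CPM in T403A (1308 counts), 1.99-fold lower (1.85 to 2.13). Psmb10 was the most abundant of the 3 in both libraries, also per kilobase of gene length (76.5 and 38.5 CPM per kb, against 15.8 and 5.99 for Psmb9 and 8.72 and 3.85 for Psmb8). Of the Psmb9 exons, 5.79% overlap Tap1 on the opposite strand, and 14.7% of the Psmb8 exons overlap an antisense gene model. The sources used here give no strand setting for the counting, so such reads cannot be assigned to a strand.

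The PA28 ring, a heteroheptamer of the Psme1 (alpha) and Psme2 (beta) products, had summed counts 2.41-fold lower in T403A (2.29 to 2.53). Psme2 (ENSMUSG00000079197, chromosome 14, 55587441 to 55591113, minus strand) was at 148 CPM in WT (2214 counts) and 51.7 CPM in T403A (1030 counts), 2.86-fold lower (2.65 to 3.08). A near-identical gene, Psme2b, shares 99.4% of bases over 794 aligned bases with Psme2, so the split of reads between these genes is uncertain. Psme2b was at 54.4 and 28.3 CPM, 1.92-fold lower (1.72 to 2.14), and the counts of both genes summed, a step added after the data were seen, were 2.53-fold lower (2.38 to 2.68), less than the 2.63-fold of Psmb9. Psme1 (ENSMUSG00000022216, chromosome 14, 55578123 to 55581529, plus strand) was at 161 CPM in WT (2408 counts) and 76.3 CPM in T403A (1522 counts), 2.10-fold lower (1.97 to 2.24). A processed pseudogene, Gm7776, matches Psme1 at 95.5% over 224 bases. Per base of gene length, the level of Psme1 relative to Psme2 was 0.869 in WT and 1.18 in T403A. Psme2b is left out of both values, so the uncertain split of reads bears on them as well.

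The other activators were within 1.5-fold. Psme3, which encodes PA28 gamma, a nuclear homoheptamer, had a level of 92.6 CPM with WT and 73.3 CPM with T403A, a ratio of 0.79 (0.74 to 0.85). Psme4 encodes PA200, a single-chain nuclear activator linked to histone degradation, and was at 163 and 132 CPM, a ratio of 0.81 (0.77 to 0.86). The intervals of Psme1 and Psme2 do not reach those of Psme3 and Psme4, although a difference between members has no replicate check either. Taken with the 3 immunosubunits, the 4 activators make a group of 7 with 5 called lower, against 10.8% of all measured genes. The 5 are the immunosubunits, Psme1 and Psme2, already described. The group had a median log2 ratio of -1.07 and summed counts 1.80-fold lower (1.75 to 1.85).

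**Figure D2:**
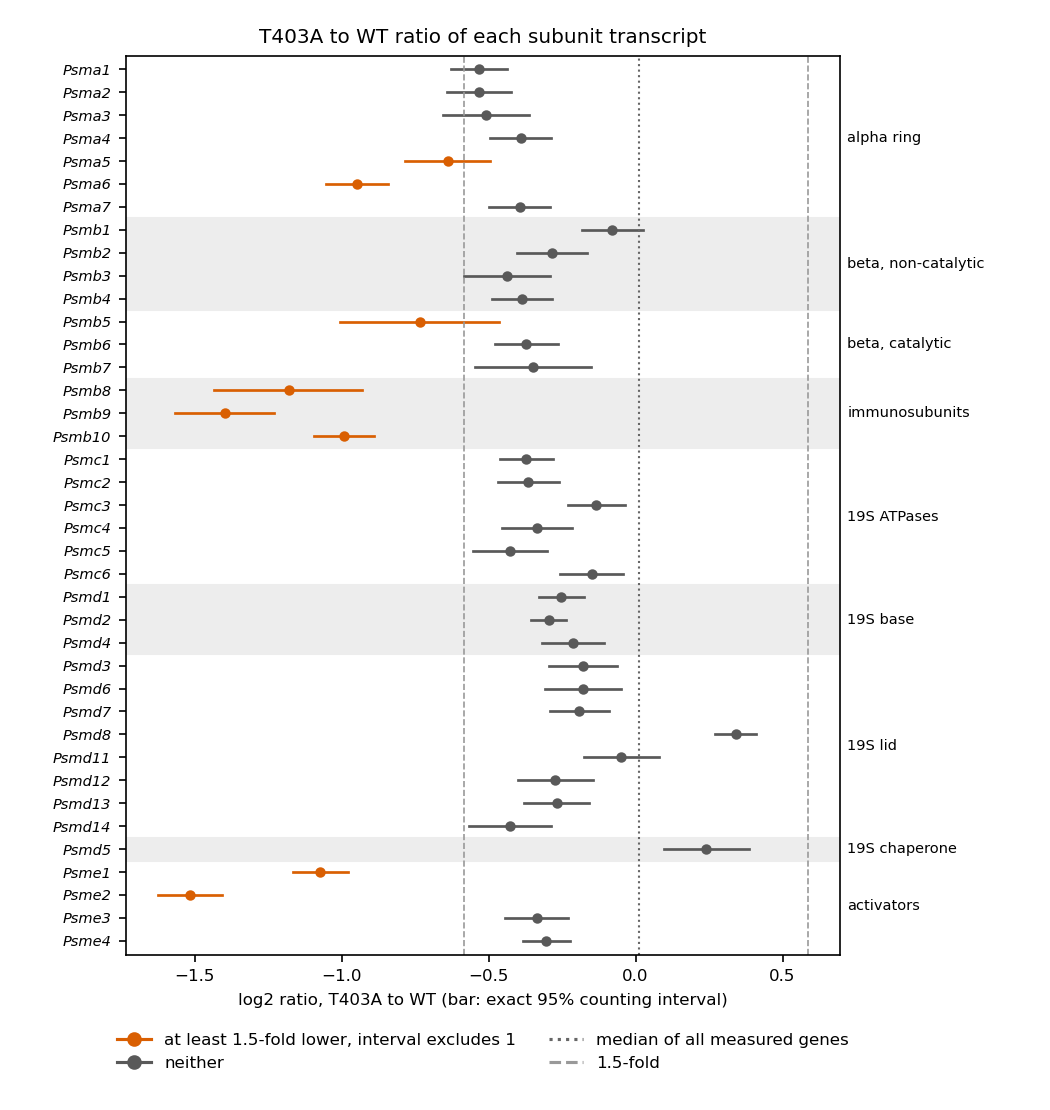
T403A to WT ratio of each member on the log2 scale, with exact 95% counting intervals as bars. The dotted line is the median of all measured genes (0.01) and dashed lines mark 1.5-fold. The 5 immunosubunit and PA28 alpha and beta ratios lie to the left of all the other 34 members, but the intervals of Psmb10 (log2 ratio -0.99) and Psma6 (-0.95) overlap.

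The constitutive subunits are here all members except Psmb8 to Psmb10 and Psme1 to Psme4. Their 32 log2 ratios had a median of -0.34 and an SD across genes of 0.25, and ran from -0.95 (Psma6) to 0.34 (Psmd8). Of the 32, 3 were called lower (Psma5, Psma6 and Psmb5), 0 higher and 29 neither, a share near the 10.8% called lower among all measured genes. The log2 ratio was below 0 for 30 of 32 with TMM scaling, for 23 of 32 when libraries were scaled by total counts, and for 6 of 32 when they were scaled to the constitutive core. The core scale is made from 14 of these same subunits, so its count is partly set by construction and is no separate check. Total count scaling moves the median of all measured genes by 0.19, and the constitutive median was then -0.15 against 0.20 for all genes. The calls over all genes were then 20.4% higher and 7.95% lower. Summed, the constitutive subunits made up 0.275% of the WT library (0.273 to 0.278) and 0.259% of the T403A library (0.257 to 0.262).

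The alpha ring, whose subunits gate entry to the core, was the lowest constitutive group. Its 7 members had a median log2 ratio of -0.53 and summed counts 1.48-fold lower (1.43 to 1.52). Of the 7, 2 were called lower, against 10.8% of all measured genes. Psma6 (ENSMUSG00000021024, chromosome 12, 55384222 to 55418454, plus strand) was at 122 CPM in WT (1836 counts) and 63.5 CPM in T403A (1266 counts), 1.93-fold lower (1.79 to 2.07). Per kilobase of deposited gene length it had the highest level of all 39 members in WT, at 99.2 CPM per kb. It held rank 4 in T403A at 51.4. Such ranks depend on the gene length used. Psma5 (ENSMUSG00000068749, chromosome 3, 108256926 to 108279974, plus strand) was at 57.3 CPM (860 counts) and 36.8 CPM (734 counts), 1.56-fold lower (1.41 to 1.72). With total count scaling Psma5 was 1.36-fold lower and no longer called, while Psma6 was 1.69-fold lower. Psma5 has a processed pseudogene, Gm8394, that matches it at 98.6% over 952 bases. The ratios of Psma1, Psma2 and Psma3 were 0.69, 0.69 and 0.70, just inside the 1.5-fold limit, and those of Psma4 and Psma7 were both 0.76.

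The constitutive beta subunits were mostly within 1.5-fold. Psmb5 (ENSMUSG00000022193, chromosome 14, 54614119 to 54618022, minus strand), the beta5 subunit with chymotrypsin-like activity, had the lowest counts of any member. It was at 17.3 CPM in WT (259 counts) and 10.4 CPM in T403A (207 counts), 1.66-fold lower (1.38 to 2.01), or 1.46-fold and not called with total count scaling. The pseudogene Gm3375 matches Psmb5 at 98.9% over 796 bases. Psmb6, the caspase-like beta1 subunit, was at 93.9 and 72.6 CPM (ratio 0.77, 0.72 to 0.83). Psmb7, the trypsin-like beta2 subunit, was at 27.7 and 21.8 CPM (ratio 0.78, 0.68 to 0.90), with the limit that 11.8% of its exon bases overlap Nek6 on the opposite strand. Among the beta subunits without a catalytic site, Psmb1 was closest to equal, at 88.9 and 84.2 CPM (ratio 0.95, 0.88 to 1.02). Psmb2, Psmb3 and Psmb4 had ratios of 0.82, 0.74 and 0.77.

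Since an immunosubunit replaces its constitutive partner, each pair was compared inside a library, where no scaling between libraries enters. In the beta1 pair, Psmb9 made up 23.9% of the level per base of gene length in WT (exact 95% interval 22.4 to 25.5) and 13.4% in T403A (12.2 to 14.7). The Psmb9 to Psmb6 ratio was 2.04-fold lower in T403A (exact conditional interval 1.77 to 2.34). In the beta2 pair, Psmb10 made up 90.4% in WT (89.5 to 91.3) and 85.8% in T403A (84.4 to 87.1). The Psmb10 to Psmb7 ratio was 1.56-fold lower (1.34 to 1.82), while Psmb10 remained the larger partner in both libraries. In the beta5 pair, Psmb8 made up 31.2% in WT (27.8 to 34.9) and 25% in T403A (21.5 to 28.9). The Psmb8 to Psmb5 ratio was 1.36-fold lower (1.05 to 1.76), the least of the 3 pairs, and the shares' intervals overlap. The ratio changes do not depend on gene length, but the shares do. With the longest coding transcript in place of the deposited length, the Psmb8 share was 43.3% in WT and 35.9% in T403A. Transcript shares are not shares of assembled protein.

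**Figure D3:**
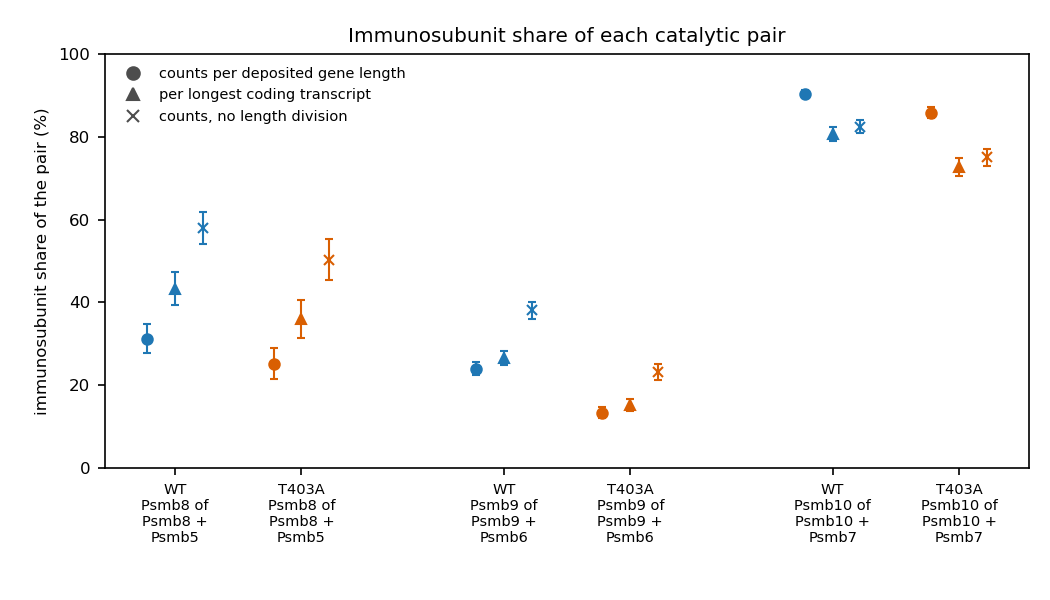
Share of the immunosubunit in each catalytic pair, in percent, for both libraries (blue WT, orange T403A) under 3 ways of treating gene length, with exact binomial 95% intervals as bars. In each pair and with each length the T403A share is below the WT share; for Psmb8 the intervals of the libraries overlap with each length (25% and 31.2% per deposited length).

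The 19S particle was nearer to the median of all genes than the core. None of its 17 subunits was called, against 10.8% lower and 13.5% higher of all measured genes. The median log2 ratio of the particle was -0.25. Its summed counts were 1.14-fold lower (1.12 to 1.16), against 1.37-fold (1.34 to 1.4) for the 14 constitutive core subunits. The 6 ATPases Psmc1 to Psmc6, the ring that unfolds substrates, had log2 ratios from -0.43 (Psmc5) to -0.13 (Psmc3), with Psmc1 the most abundant at 130 and 100 CPM. The ratios of Psmc1, Psmc2 and Psmc4 were 0.77, 0.78 and 0.79, and that of Psmc6 was 0.90. Psmd1 and Psmd2, the scaffolds of the base, were at 171 and 144 CPM and at 294 and 240 CPM, and Psmd2 had the highest CPM of any member in both libraries. Psmd4, a ubiquitin receptor of the base, had a ratio of 0.86 (0.80 to 0.93).

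Lid subunits, which hold the deubiquitinase Psmd14 and its scaffold, had a median log2 ratio of -0.19. Psmd14 was the lowest of the 8, at 56.5 and 42.1 CPM (ratio 0.74, 0.68 to 0.82), and Psmd11 was nearly equal at 60.1 and 58.1 CPM (0.97, 0.89 to 1.06). The other subunits below 1 were Psmd3, Psmd6 and Psmd7, each with a ratio of 0.88, and Psmd12 and Psmd13, each with 0.83. Psmd8 (ENSMUSG00000030591, chromosome 7, 29174188 to 29180701, minus strand) went the other way, at 170 CPM in WT (2557 counts) and 216 CPM in T403A (4302 counts), a ratio of 1.27 (1.20 to 1.33). Per kilobase of deposited gene length Psmd8 held rank 8 of 39 in WT and rank 1 in T403A, ranks that also depend on the length used. The chaperone Psmd5, which helps to assemble the base and is not part of the finished particle, was at 43.1 CPM (647 counts) and 51.0 CPM (1016 counts), a ratio of 1.18 (1.07 to 1.31). Neither Psmd8 nor Psmd5 reached 1.5-fold under TMM, total count or DESeq2 scaling, with ratios of at most 1.45 and 1.35.

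When libraries were scaled to the summed counts of the 14 constitutive core subunits instead, a scale that gives each member relative to the core, 4 members were lower and 2 higher. Psme2 was then 2.08-fold, Psmb9 1.92-fold, Psmb8 1.65-fold and Psme1 1.53-fold lower. Psmb10 was 1.45-fold lower and not called, as were Psma6 at 1.41-fold, Psmb5 at 1.21-fold and Psma5 at 1.14-fold. Psma6, Psmb5 and Psma5 are themselves part of the core that sets this scale. Psmd8 and Psmd5 were called higher, with ratios of 1.74 and 1.62. Of the 32 constitutive subunits 26 were above 1 on this scale, where all genes had a median log2 ratio of 0.47 and 37.5% were called higher and 5.52% lower.

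Near the immunosubunit and PA28 genes, neighbouring genes were lower as well, but not all of them. Psmb9 and Psmb8 lie in the MHC on chromosome 17 with the peptide transporter genes Tap1 and Tap2 between and beside them. Tap1, whose 5′ end overlaps that of Psmb9 head to head, had a level of 215 CPM with WT and 40.5 CPM with T403A, 5.32-fold lower (4.92 to 5.75). Tap2, which starts 2073 bases after the end of Psmb8, was at 40.1 and 22.7 CPM, 1.77-fold lower (1.56 to 2.0). On the other side of Psmb9 the nearest measured gene, H2-DMb1, an MHC class II peptide-loading gene, was within 1.5-fold at 36.4 and 28.1 CPM. Within 50 kb of Psmb8, 5 of 7 measured genes were lower, including Psmb9, Gm15821 on 18 and 10 counts and H2-Ob on 28 and 4 counts. The count was 4 of 7 around Psmb9, 3 of 7 around Psme1, 3 of 8 around Psme2 and 2 of 6 around Psmb10, with 1 gene higher in each of the last 3 windows, against 10.8% lower of all measured genes. The windows overlap and these counts include other members. Gm15821, counted around both Psmb8 and Psmb9, lies inside the Tap2 gene body on the opposite strand. With no strand setting given, its reads may not be separate from those of Tap2. H2-DMb2, on 19 and 20 counts, was not called, nor was H2-DMa, the farthest of these from Psmb9.

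Psme1 and Psme2 lie 5912 bases apart on chromosome 14 in a cluster that also holds Rnf31 and Irf9. Rnf31, a subunit of the linear ubiquitin ligase, lies 595 bases from Psme2 and was at 78.1 and 42.3 CPM, 1.84-fold lower (1.69 to 2.02). Irf9, a partner of STAT2 in the interferon-activated factor ISGF3, was at 126 and 45.9 CPM, 2.73-fold lower (2.52 to 2.96). Emc9, which lies between the PA28 genes, was not called, at 7.67 and 8.27 CPM (ratio 1.08), and Dcaf11 was within 1.5-fold. Pck2, farther off in the same window, was called higher, at 17.3 and 31.5 CPM. Around Psmb10, Pskh1 on one side was within 1.5-fold (37.8 and 36.6 CPM) and the ion cotransporter gene Slc12a4 on the other was 1.80-fold lower (1.66 to 1.96). In that window Dpep3 (44 and 36 counts) was called lower and Dpep2 (62 and 134 counts) higher. None of the 3 measured neighbours of Psme3 was called, including the nearest, Becn1 and Aoc2, nor was Asb3, the 1 measured neighbour of Psme4.

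**Figure D4:**
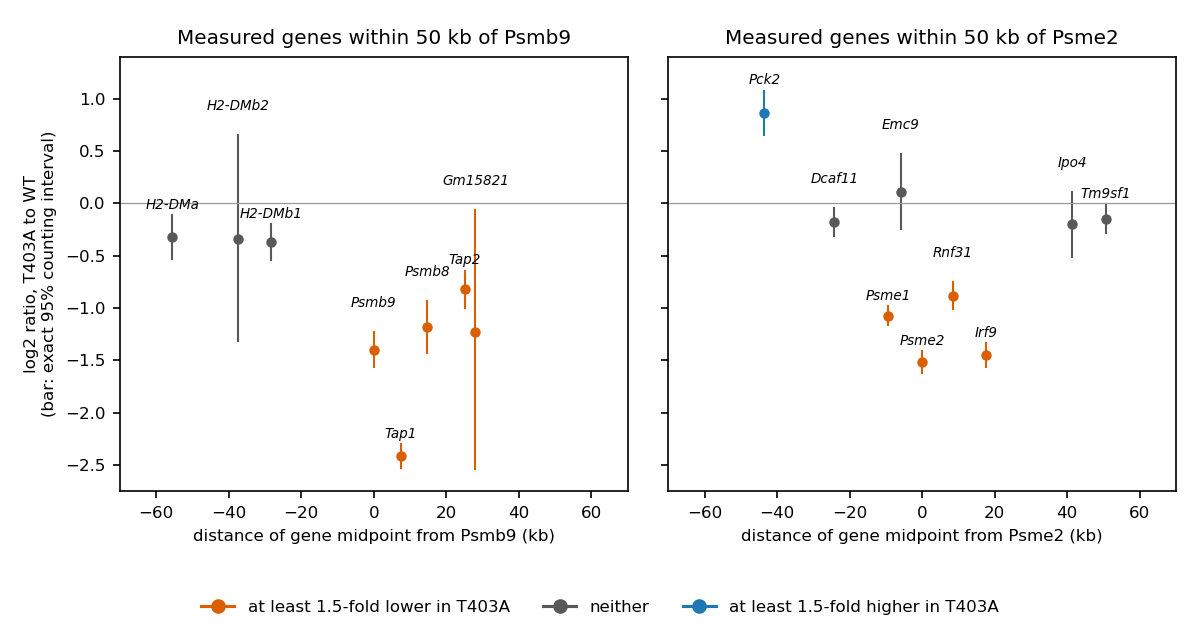
Log2 ratio of measured genes within 50 kb of Psmb9 (left) and Psme2 (right), by distance of gene midpoints, with exact 95% counting intervals as bars. On the left Psmb9, Tap1, Psmb8, Tap2 and Gm15821 are lower and the 3 H2-DM genes are not called, and on the right Psme1, Psme2, Rnf31 and Irf9 are lower while Emc9 between the PA28 genes is not.

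Other genes of proteasome assembly, substrate delivery and peptide loading were taken from lists by function. Over all measured genes, 10.8% were called lower and 13.5% higher. In the assembly list, 1 of 7 measured genes was lower: Psmd10 (gankyrin), at 59.7 and 37.8 CPM, 1.58-fold (1.43 to 1.74). Pomp, the maturation factor of the core, was the most abundant of that list at 68.3 and 56.2 CPM and was not called. None of the 8 proteasome-bound receptors, enzymes and inhibitors was called, with the scaffold gene Ecpas the most abundant at 140 and 143 CPM. None of 6 shuttle genes was called either, the most abundant by summed count being Rad23b at 199 and 170 CPM, followed by Ddi2, the protease that activates NRF1, at 168.6 and 192 CPM. In the NRF1 list 0 of 5 were called. The highest ratio there was that of Ngly1, just inside the 1.5-fold limit at 24.9 and 37.3 CPM (1.499, 1.32 to 1.70). Nfe2l1, the gene of NRF1 itself, was at 250 and 239 CPM, and Vcp, the unfoldase that releases it from the endoplasmic reticulum membrane, was the most abundant at 342 and 304 CPM. Uba1, the gene of the ubiquitin-activating enzyme, was at 444 and 355 CPM and not called. The testis-type alpha subunit gene Psma8 was called higher on 12 and 34 counts (ratio 2.13, 1.08 to 4.52), and the thymus-type Psmb11 was at 0 in both libraries.

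The class I route downstream of the proteasome had a median log2 ratio of -0.75, against 0.01 for all measured genes. Against 10.8% of all measured genes, 5 of its 8 genes were lower. Besides Tap1 and Tap2, these were the tapasin gene Tapbp (619 and 295 CPM, 2.10-fold, 2.03 to 2.17), its relative Tapbpl (1.61-fold, 1.43 to 1.80) and B2m, the light chain and most abundant gene of the list (4677 and 1829 CPM, 2.56-fold, 2.53 to 2.59). Erap1, Pdia3 and Calr were not called. Among factors known to act on immunosubunit genes, Nlrc5, the class I transactivator, was at 130 and 58.8 CPM, 2.20-fold lower (2.05 to 2.37). Irf1, the factor classically tied to Psmb9 and Tap1 induction, was at 99.99 and 68.6 CPM, 1.46-fold lower (1.35 to 1.57), and was not called.

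**Figure D5:**
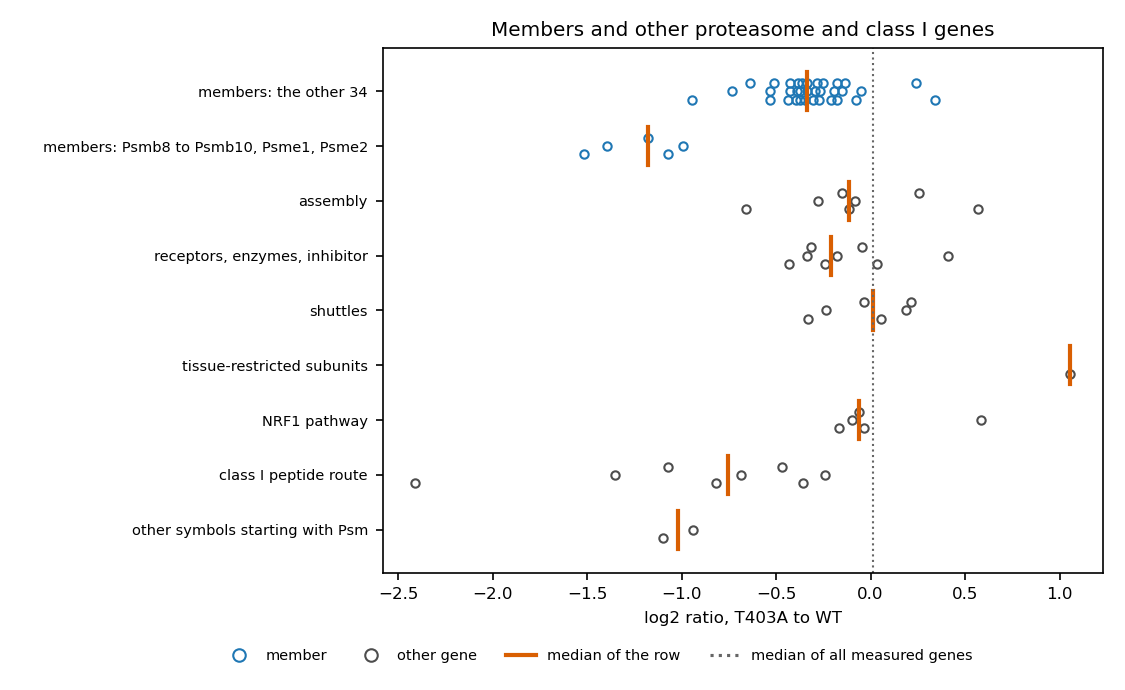
Log2 ratio of every measured gene in the member groups (blue) and of 7 other lists (grey), with the median of each row in orange and the median of all measured genes (0.01) as a dotted line. The 5 immunosubunit and PA28 alpha and beta genes have a median of -1.18, the other 34 members -0.34 and the class I route -0.75.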

How the data were processed

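Read counts per Ensembl gene were deposited for both libraries, with a gene length in bases, per the file headers. Tools listed, per the submitters' processing notes, are HTSeq 0.9.1, HISAT2, DESeq 1.30.0 and cutadapt 1.15, with GRCm38 as build; the sources used here do not give their roles, the strand setting or how multiply mapped reads were treated. Symbols came from a table of Ensembl identifiers (all 39 members matched; Paaf1 of the assembly list did not) and positions from GENCODE M21 on the same build. The deposited length equalled the union of M21 exons for 37 of 39 members. Counts were scaled with TMM (edgeR 4.0.16, R 4.3.3). Ratio intervals are Clopper-Pearson intervals on both counts (scipy 1.17.1), and shares of a library carry Wilson intervals. Log2 ratios in medians use a prior count of 0.5. Members and lists were chosen with earlier results of these data known. Genes named are every member, the called and the most abundant gene of each list, and the nearest and called neighbours; others named were chosen after their values were seen. Some results from the lists of ubiquitin genes and of immunosubunit regulators are not reported here. Alternatives were library size, DESeq2 1.42.0 and constitutive core scaling, other count filters, a 2-fold call and other gene lengths. A blastn 2.17.0 search at 95% identity over at least 200 bases found copies of 11 members elsewhere, 3 of them (Psme2b, Gm4950 and Gm609) among the deposited rows. Exons of 10 members overlap a gene on the opposite strand.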

Additional observations from a re-analysis of the deposited data

How the results depend on the processing

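No paired analysis was possible because each group is 1 library, and for the same reason no library could be left out. The calls of Psmb8, Psmb9, Psme1 and Psme2 held under every scaling and filter run. With library size scaling 1 alpha subunit and 0 constitutive beta subunits were lower, and 3 of 46 measured other genes were higher. On that scale 7.95% of all measured genes were called lower and 20.4% higher. The median log2 ratios were then -0.34 (alpha ring), -0.14 (non-catalytic beta), -0.16 (ATPases), -0.060 (19S base) and 0.43 (Psmd5). With constitutive core scaling 0 alpha, 0 constitutive beta and 2 19S members (higher) were called, and of the other genes 7 were higher and 5 lower. Of all measured genes, 37.5% were called higher and 5.52% lower on this scale. The medians were then -0.076 (alpha ring), 0.12 (non-catalytic beta), 0.085 (constitutive catalytic), -0.72 (immunosubunits), 0.11 (ATPases), 0.20 (19S base), 0.27 (lid), 0.70 (Psmd5) and 0.11 (constitutive subunits). At 2-fold, 0 alpha and 0 constitutive beta subunits and 5 other genes were lower. With a summed count of at least 100, 0 other genes were higher, and the share of all genes at that filter is not given here. The shifts between scalings follow from the scaling factors themselves. DESeq2 scaling and dropping the count filter kept the calls of all members. Without length division the immunosubunit shares in WT and T403A were 58.0% and 50.4% (Psmb8), 38.1% and 23.2% (Psmb9) and 82.5% and 75.1% (Psmb10). Per longest coding transcript they were 43.3% and 35.9%, 26.6% and 15.1%, and 80.6% and 72.7%. Depth limits Psmb5 and Psmb8 most, with 207 to 358 counts per library.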
